A study of Mus musculus with 4 samples.

Results

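The genes described here are Engrailed, Pax and related factors, several of which set up the boundary between midbrain and hindbrain. They are the Engrailed genes En1 and En2 and the paired-box genes Pax2, Pax5, Pax6 and Pax8. The others are the homeobox genes Otx1, Gbx2 and Meis1 and the signal gene Fgf17. All 10 genes were chosen by symbol, as every probe that the platform annotation assigns to 1 of them. This gave 18 of the 45281 probes and 10 of the 19057 annotated genes. Their signals were read on Illumina bead arrays from total RNA of mouse brain, on 2 arrays of Atm+/+ and 2 of Atm-/- samples, and both genotypes shared a mixed 129J x C57BL/6 background. The product of Atm is a protein kinase activated by double-strand breaks in DNA. Neither the type of Atm mutation nor the sex, age or dissected brain area is stated in the labels. Nor do they say that the samples of a genotype were separate animals, so the p-values measure a spread between samples that may be technical.

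During development the midbrain and the anterior hindbrain are patterned from their shared border, the isthmus. OTX proteins on the anterior side and GBX2 on the posterior side repress each other and place this border, where PAX2, PAX5 and PAX8, the Engrailed proteins and secreted FGF8-family factors such as FGF17 keep each other active. In the adult brain several of these genes stay on in neurons that arose there, among them En1 and En2 in midbrain dopamine neurons and En2 in the cerebellum, while Otx1 is known for deep-layer cortical neurons.

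In Atm-/- brain the posterior member Gbx2, both Engrailed genes and Meis1 were lower, and the anterior member Otx1 was higher. En2 was 58.2-fold lower. Otx1 was 19.5-fold higher, from Atm+/+ values just above background, which limit the size of the rise. Pax2, Pax5 and Pax6 were too dim to test on these arrays, and Pax8 and Fgf17 did not pass the test. A probe was tested when it read above a background level of 5.64 (log2 signal) on at least 2 of the 4 arrays. Genotypes were compared with limma, adjusted p-values were taken over all tested probes, and a change was called at an adjusted p under 0.05. Read at the brightest tested probe of each gene, 4 of the 7 genes with a tested probe fell and 1 rose, against 6.89% and 7.50% of all 12231 genes tested. A gene that passed the background filter through 1 genotype only had to differ, so this count is a description. In RNA of whole tissue, fewer cells of a type and less RNA per cell cannot be told apart. Nor can genotype and the area of brain sampled, which the labels do not state.

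The promoters of En1, Gbx2 and Meis1, members that fell, are shown here, and whether these genes act on one another was not tested. Windows reaching from 250 bases before to 50 bases after a start site, from RefSeq on GRCm38.p6, were matched by symbol for 7 of the 10 genes, all but En2, Otx1 and Fgf17. Each is written 5′ to 3′ on the strand of its gene, and capitals mark a match to a searched motif on either strand. The windows are chr1:120602237-120602536 on the plus strand for En1, chr1:89931127-89931426 on the minus strand for Gbx2 and chr11:19018920-19019219 on the minus strand for Meis1.
En1: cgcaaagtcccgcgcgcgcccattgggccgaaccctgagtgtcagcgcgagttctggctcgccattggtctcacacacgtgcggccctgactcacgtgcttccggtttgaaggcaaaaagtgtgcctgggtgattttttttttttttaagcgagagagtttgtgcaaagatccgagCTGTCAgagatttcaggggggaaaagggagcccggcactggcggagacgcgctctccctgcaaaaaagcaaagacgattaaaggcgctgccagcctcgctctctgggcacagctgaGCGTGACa
Gbx2: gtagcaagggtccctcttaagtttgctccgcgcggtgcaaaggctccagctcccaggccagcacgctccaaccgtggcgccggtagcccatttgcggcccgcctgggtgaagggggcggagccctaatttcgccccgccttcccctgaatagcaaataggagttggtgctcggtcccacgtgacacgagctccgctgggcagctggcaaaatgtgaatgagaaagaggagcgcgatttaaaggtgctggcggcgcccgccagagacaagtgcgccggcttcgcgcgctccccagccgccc
Meis1: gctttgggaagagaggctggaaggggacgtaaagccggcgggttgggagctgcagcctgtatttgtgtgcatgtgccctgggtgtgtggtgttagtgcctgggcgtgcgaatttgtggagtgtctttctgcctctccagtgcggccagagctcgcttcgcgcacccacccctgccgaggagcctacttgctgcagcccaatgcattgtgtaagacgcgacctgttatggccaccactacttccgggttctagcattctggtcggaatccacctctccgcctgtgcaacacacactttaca

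Motifs searched on both strands were GCGTGAC, the core bound by the paired domain of PAX2, PAX5 and PAX8, TGACAG, the core bound by MEIS proteins, and TAATTA, a core bound by many homeodomains including Engrailed. The En1 window held GCGTGAC at position 293 of 300 and TGACAG, on the opposite strand, at position 177, and these matches did not overlap. The Gbx2 and Meis1 windows held none of the 3 motifs. Over all 10 windows of member genes, GCGTGAC was found in 1 and TGACAG in 2, those of En1 and of 1 Pax6 start, and TAATTA in 0. Among all 32851 promoter windows of this length, 2.09% held GCGTGAC, 19.2% held TGACAG and 5.29% held TAATTA. A match describes the letters of the window and does not show binding.

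Over the whole array 13.0% of 22385 tested probes were called, 6.98% higher and 6.06% lower in Atm-/-. Atm itself fell to background at ILMN_1258206, from 7.75 and 7.84 in Atm+/+ to 5.59 and 5.28 in Atm-/- (limma adjusted p = 0.00224), and at ILMN_2783896 (adjusted p = 0.0205), while ILMN_2492491 read 9.32 to 9.73 in Atm+/+ and 9.66 to 10.61 in Atm-/- and did not pass. The Atm+/+ arrays differed more from each other than the Atm-/- arrays, with a root mean square SD over tested probes of 0.455 against 0.229. Counts of calls therefore depended on the array left out: 1562 higher and 1357 lower probes with all 4 arrays became 423 and 255 without Atm-/- replicate 1, 387 and 278 without Atm-/- replicate 2, 4176 and 4146 without Atm+/+ replicate 1, and 3948 and 3583 without Atm+/+ replicate 2. Of 5 neuron markers 3 were tested and 1, Syt1, rose, with summed linear signals of 36900 to 44810 in Atm+/+ and 86080 to 91280 in Atm-/-, while Snap25 and Tubb3 were at background throughout. None of 3 oligodendrocyte markers passed (73410 to 78540 against 51410 to 52970), and 2 of 5 tested meningeal markers fell (19380 to 23750 against 9070 to 10130). The part of these shifts in the results was not tested. Here and below, a linear sum weighs the brightest genes of its list most. Among these are Aldoc for astrocytes and Ttr for the choroid plexus.

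**Figure D1:**
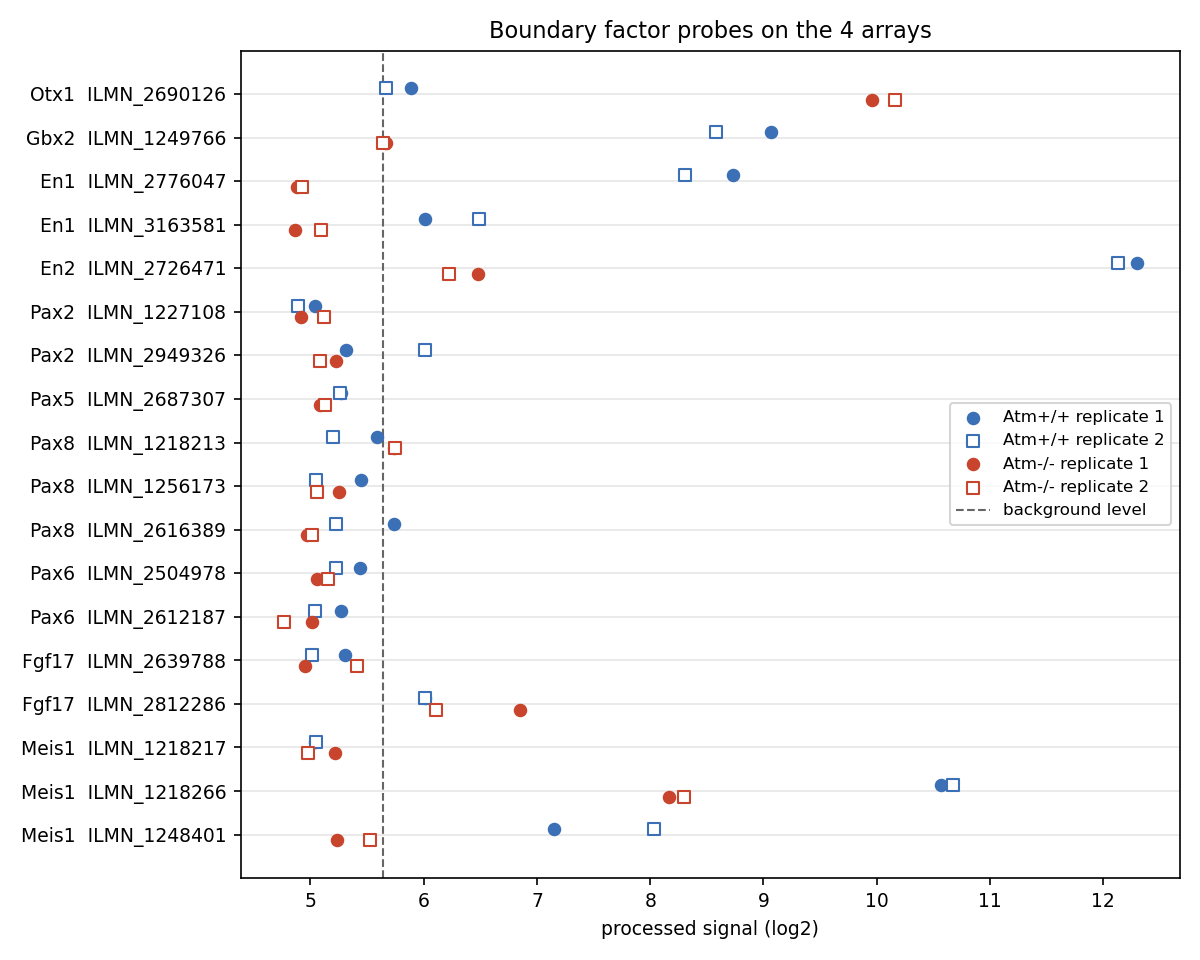
Processed log2 signal (horizontal axis) of each of the 18 probes of the 10 genes, with the 2 Atm+/+ arrays in blue and the 2 Atm-/- arrays in red, and the background level of 5.64 as a dashed line. En2, En1, Gbx2 and both brighter Meis1 probes lie to the right in Atm+/+, Otx1 lies to the right in Atm-/-, and the Pax probes cluster around or below the line.

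The border is set by opposing anterior and posterior factors, and the members Otx1 and Gbx2 moved in opposite directions. Otx2, an OTX gene outside the member set, fell like Gbx2, by 1.53, as described below. Otx1 encodes an OTX protein of the anterior side with a later role in cortex. Its single probe, ILMN_2690126, read 5.89 and 5.66 on the Atm+/+ arrays and 9.96 and 10.16 on the Atm-/- arrays. The Atm+/+ values lay just above background, both Atm-/- values lay far above it, and the genotypes did not overlap. With 2 arrays per genotype, the log2 signal of Otx1 rose by 4.28 ± 0.26 (SE, limma adjusted p = 0.000321), the 31st largest increase among all tested probes.

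Gbx2 encodes the posterior factor, which also acts in the developing thalamus. ILMN_1249766 read 9.07 and 8.58 in Atm+/+ and 5.67 and 5.64 in Atm-/-. Both Atm-/- values lay at the edge of the background level, and the size of the difference, 9.0-fold, depends on that level. Gbx2 fell by 3.17 ± 0.28 on the log2 scale (limma adjusted p = 0.000939), and the lowest Atm+/+ value lay 2.92 above the highest Atm-/- value.

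The Engrailed genes encode homeodomain repressors that give midbrain and anterior hindbrain their identity. En2 had 1 probe, ILMN_2726471, which read 12.30 and 12.13 in Atm+/+ and 6.47 and 6.22 in Atm-/-. All 4 values were above background, and the gap between the genotypes, 5.65 on the log2 scale, was many times the SD within either genotype (0.12 in Atm+/+ and 0.18 in Atm-/-, n = 2 each). En2 fell by 5.86 ± 0.26 (limma adjusted p = 0.000181), to 1.72% of its Atm+/+ signal, and only 4 tested probes on the array decreased more.

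En1 was measured by 2 probes. ILMN_2776047 read 8.73 and 8.31 in Atm+/+ and 4.88 and 4.92 in Atm-/-, the latter at background on both arrays. It was at least 7.36-fold lower in Atm-/-, with a fitted change of -3.62 ± 0.27 (limma adjusted p = 0.000588). The dimmer probe, ILMN_3163581, read 6.01 and 6.49 in Atm+/+ and 4.86 and 5.09 in Atm-/-. It also went to background without overlap, at least 1.53-fold lower (fitted change -1.27 ± 0.28, adjusted p = 0.0285). Its call was lost without Atm-/- replicate 1 (limma adjusted p = 0.306) and without Atm-/- replicate 2 (0.197), whereas the brighter probe stayed called whichever array was left out.

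Meis1 encodes a homeodomain protein of the TALE class that binds DNA together with PBX and HOX proteins. ILMN_1218266 read 10.56 and 10.67 in Atm+/+ and 8.16 and 8.30 in Atm-/-, so Meis1 remained well above background in both genotypes. It fell by 2.39 ± 0.25 (limma adjusted p = 0.0019), to 19.1% of its Atm+/+ signal. ILMN_1248401 read 7.15 and 8.04 in Atm+/+ and 5.23 and 5.52 in Atm-/-. This probe reached background in Atm-/-, at least 3.87-fold lower, with a fitted change of -2.21 ± 0.35 (adjusted p = 0.00855, or 0.0607 without Atm-/- replicate 1). The remaining probe, ILMN_1218217, lay between 4.98 and 5.21 on the 4 arrays and was too dim to test. The annotation gives it and ILMN_1248401 complementary DNA clones in place of the RefSeq transcript of ILMN_1218266.

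**Figure D2:**
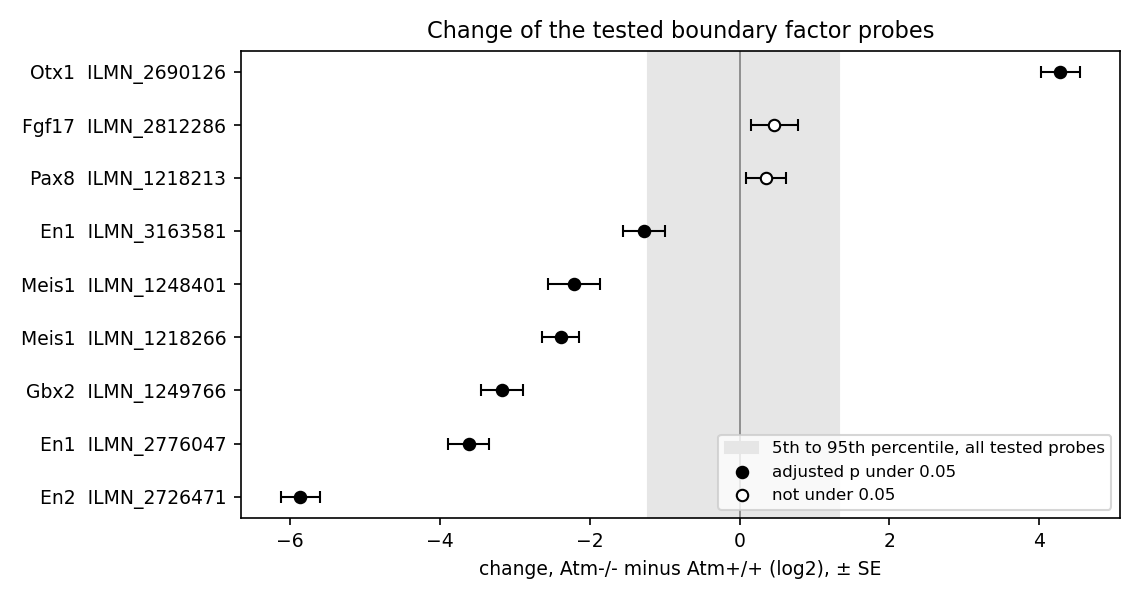
Change in log2 signal, Atm-/- minus Atm+/+, of the 9 tested probes (points) with the limma SE (bars). Filled points passed an adjusted p of 0.05, and the grey band spans the 5th to 95th percentile of all tested probes, -1.22 to 1.33. The Otx1, Gbx2, En2, Meis1 and both En1 probes lie outside the band, the dimmer En1 probe at its edge, and Fgf17 and Pax8 lie inside it.

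The PAX2, PAX5 and PAX8 proteins form 1 subgroup of paired-domain factors that maintain the border and, later, other tissues: Pax2 marks precursors of cerebellar interneurons, Pax5 B lymphocytes and Pax8 the thyroid. Pax2 and Pax5 were too dim for a comparison. Of the Pax2 probes, ILMN_1227108 read 4.89 to 5.12 on the 4 arrays, and ILMN_2949326 exceeded background on Atm+/+ replicate 2 alone, at 6.01, against 5.09 to 5.32 on the others. The Pax5 probe, ILMN_2687307, lay between 5.08 and 5.27.

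Of 3 Pax8 probes, 1 could be tested. ILMN_1218213 read 5.59 and 5.20 on the Atm+/+ arrays and 5.74 and 5.75 on the Atm-/- arrays, and the 0.35 ± 0.27 between them missed the threshold (limma adjusted p = 0.42). It entered the test only through Atm-/- values that barely exceeded background. Both other Pax8 probes, too dim to test, had lower means in Atm-/- than in Atm+/+, with differences of -0.09 and -0.49. Pax6, which acts in cortical progenitors, the eye and cerebellar granule cell precursors, was at background on every array at ILMN_2504978 (5.06 to 5.44) and ILMN_2612187 (4.76 to 5.27). A dim probe shows only that no signal was measured by it, not that the gene was silent.

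Fgf17 encodes the 1 secreted signal among the members. ILMN_2812286 read 6.01 and 6.01 in Atm+/+ and 6.85 and 6.11 in Atm-/-, just above background on all 4 arrays. The difference of 0.46 ± 0.31 did not pass (limma adjusted p = 0.365) and came mainly from Atm-/- replicate 1, without which it was 0.10. ILMN_2639788 lay between 4.95 and 5.41 on all arrays.

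The partners of the members at the border were read from a list of 14 signals and transcription factors, of which 13 had a probe and 8 a tested one. Of these, 3 fell and 1 rose, against 6.89% and 7.50% of all tested genes, and the median change was -0.83 against -0.01. Irx2, an Iroquois homeobox gene of hindbrain and midbrain, fell from 10.53 and 9.70 to 6.10 and 5.71 (limma adjusted p = 0.000798) and also fell at ILMN_2717099, at least 12.4-fold. Another Irx2 probe was too dim to test. Sp5, a zinc-finger gene induced by Wnt signalling, fell by 3.39 ± 0.35, from 9.07 and 8.35 to 5.0 and 5.64, values at or next to background that limit the size of the fall.

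Otx2, the OTX partner that bounds the midbrain, fell by 1.53 ± 0.26 (limma adjusted p = 0.0116), from 9.39 and 9.06 to 7.72 and 7.66, in the opposite direction to Otx1. Otx2 is also a gene of the choroid plexus, and all 6 choroid plexus markers listed, Otx2 among them, fell in the same samples, their summed linear signal going from 60890 to 68470 in Atm+/+ to 26520 to 34000 in Atm-/-. Their part in the Otx2 result was not tested. Sp8, known as a patterning factor of the forebrain as well as of the isthmus, rose by 1.37 ± 0.32 (adjusted p = 0.0338), from 5.72 and 5.41 to 7.29 and 6.58. Sp8 no longer passed when either Atm-/- array was left out, and the list then held 0 rises. The signal Fgf8 read 5.66 to 5.90 on all arrays and changed by -0.14 ± 0.25. Fgf18 changed by -1.09 ± 0.32 (limma adjusted p = 0.0662) at its brightest probe, at background on both Atm-/- arrays, and by -0.33 at its other probe. Lmx1a changed by -0.57 ± 0.41 and Lmx1b by -0.09 ± 0.26. None of these changes passed. Wnt1, Fgf15, Gbx1, Pax3 and Pax7 were too dim to test.

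Of 11 tested FGF receptor and feedback genes, 1 rose and 1 fell, with a median change of -0.06, and the count and median pool both kinds of gene. This share is near that over all tested genes, of which 14.4% were called. Dusp6, a phosphatase gene induced by FGF and other growth signals through ERK, rose by 1.74 ± 0.31 (limma adjusted p = 0.0136), and its other 2 probes rose as well, by 1.68 and 1.62. Fgfr2 fell by 1.24 ± 0.26 (adjusted p = 0.0236) at ILMN_1225071 and was at least 2.23-fold lower at ILMN_1229167, while ILMN_2609887, at -1.30 ± 0.35, missed the threshold (adjusted p = 0.0505) and a further probe was too dim. Fgfr3 changed by -1.31 ± 0.35 at its brightest probe (limma adjusted p = 0.0505) and fell by 1.36 at ILMN_2590766 (0.0276), and Fgfr1 changed by -0.86 ± 0.40 (0.198). Etv5, a transcription factor gene induced by FGF, changed by 0.56 ± 0.25 at its brightest probe (0.189) and rose by 1.25 at ILMN_2938047 (0.0327). Fgfr2 is strongly expressed in glia, and 3 of 4 astrocyte markers fell in the same samples, with a summed signal of 38310 to 57460 in Atm+/+ and 18040 to 18710 in Atm-/-, whose part was not tested. Both calls, at the probe that stood for the gene, were lost without Atm-/- replicate 1 or replicate 2, and 3 genes fell without either Atm+/+ array.

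Partners of Meis1 and of the Engrailed proteins, the TALE genes and the Groucho corepressor genes, were measured in 11 cases, all tested. A single gene fell, Pbx3, whose product binds DNA with MEIS1, and 0 rose, a share near the 6.89% and 7.50% over all tested genes. It read 8.73 and 8.87 in Atm+/+ and 7.41 and 7.21 in Atm-/- and fell by 1.49 ± 0.25 (limma adjusted p = 0.0116), with a second probe falling by 1.59. That gene's call was lost without either Atm-/- array, and without Atm+/+ replicate 1 the list held 2 falls and 1 rise, and without Atm+/+ replicate 2 it held 4 rises. The Meis1 paralogues Meis2, at 0.48 ± 0.47, and Meis3, at 0.60 ± 0.27, did not pass, with adjusted p of 0.536 and 0.189, and the Meis2 values were 10.08 and 11.58 in Atm+/+ against 11.26 and 11.36 in Atm-/-. At their brightest tested probes, the Groucho genes Tle1, Tle2, Tle3 and Tle4 changed by -0.51 to 0.46, and none passed. Other Tle1 probes changed by 0.79 at ILMN_1245089 (limma adjusted p = 0.0809) and by -0.23 at ILMN_2599402.

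The members were set beside lists of regional transcription factor genes, ordered along the anterior to posterior axis. At the anterior end, of 13 tested telencephalon factors 10 rose and 0 fell, with a median change of 1.95, while over all tested genes 7.50% rose, 6.89% fell and the median was -0.01. Of the 10, 7 were at background on both Atm+/+ arrays, so they were tested only through Atm-/- and had to differ, and the count and median are a description. Among genes above background on all 4 arrays, 3 rose. Tbr1, of cortical projection neurons, was at least 28.9-fold higher and Dlx1, of interneurons born in the ventral forebrain, at least 26.6-fold. Fezf2 rose by 5.07 and Bcl11b by 3.81, both factors of deep-layer cortical neurons, the layers for which Otx1 is also known. Without Atm-/- replicate 2 the count of rises was 6.

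In the next list, diencephalon and midbrain, 5 of 9 tested genes fell and 1 rose, with a median change of -1.42, and 3 fell among genes above background on all 4 arrays. Irx3, an Iroquois gene, fell from 9.27 and 10.33 to 5.68 and 5.26, the latter at background, and the size of its fall depends on that level. Tcf7l2, of the thalamus, fell by 2.09. Nkx2-2, of ventral brain and oligodendrocyte precursors, fell by 2.07. Nr4a2, a factor of midbrain dopamine neurons that is also induced by neuronal activity, rose by 2.65. Without Atm-/- replicate 1 the falls numbered 1, and without Atm-/- replicate 2 they numbered 2.

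The list of rhombomere 1 and cerebellum, the territory posterior to the isthmus where En2 and Gbx2 act, had 12 of 15 tested genes lower and 0 higher, with a median change of -2.68. Of the 12, 5 had no Atm-/- array above background and so had to differ, and 7 genes fell when a signal above background was required on all 4 arrays. Lhx1, of Purkinje cells, was at least 39.6-fold lower and Zic2 at least 10.4-fold, and both were at background in Atm-/-. Tfap2b, of cerebellar interneurons, fell by 4.19, and Zic1, of granule cells, fell by 3.96. Of the caudal hindbrain and spinal cord list, 11 of 15 tested genes fell and 1 rose, with a median change of -2.18. All of the 11 but Hoxd3 had no Atm-/- array above background and entered the test through Atm+/+ alone, and 1 gene fell with the filter on all 4 arrays, so the count and median are a description. Hoxb5 was at least 36.4-fold lower, Hoxa5 at least 30.8-fold and Hoxb7 at least 7.17-fold. Egr2, which patterns the hindbrain and is also induced by neuronal activity, rose by 4.75. The falls on the caudal list numbered 7 without Atm-/- replicate 2.

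**Figure D3:**
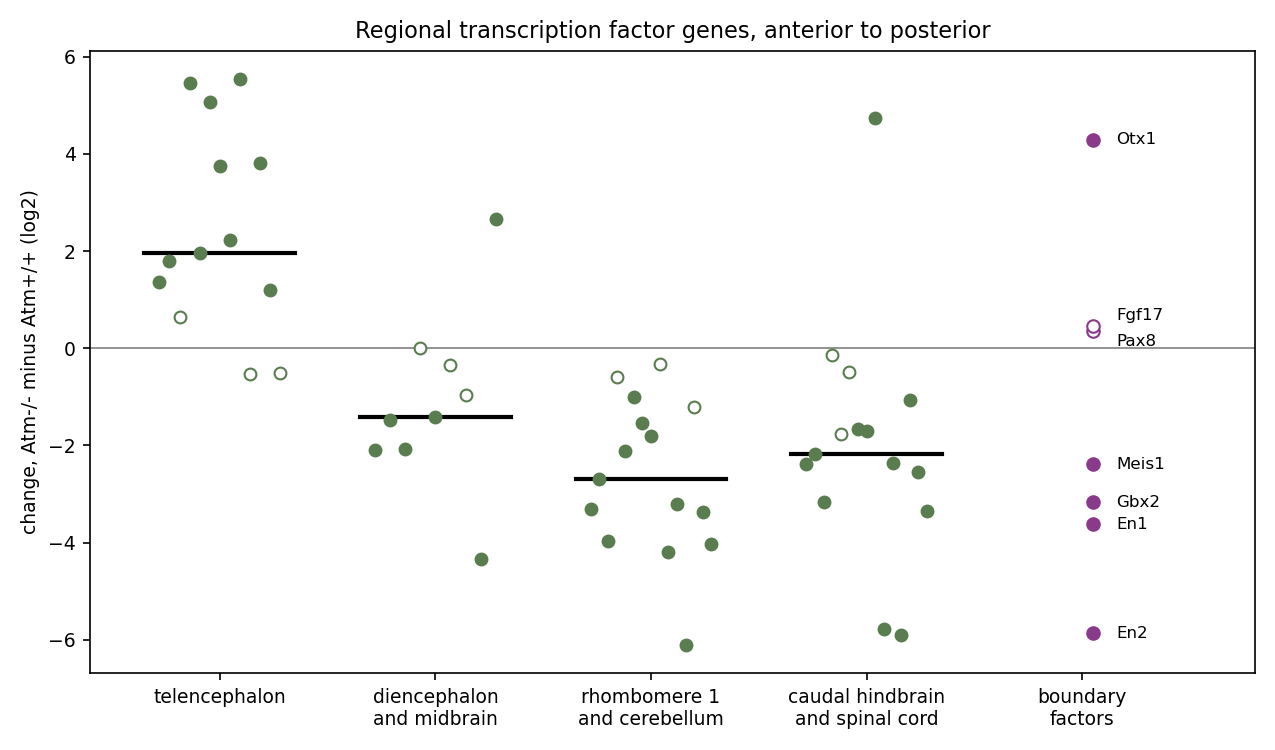
Change in log2 signal, Atm-/- minus Atm+/+ (vertical axis), of the tested genes in 4 regional lists ordered from anterior to posterior, with the list median as a bar, and of the 7 boundary genes with a tested probe in the last column. Filled points passed an adjusted p of 0.05; genes below background on more than 2 arrays are not shown, and the median is 1.95 for the telencephalon and -1.42, -2.68 and -2.18 for the lists behind it.

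Markers of the cell types that carry these genes in the adult moved in the same samples. Some of these markers, among them Zic1, Zic4, Tfap2b, Tcf7l2, Phox2a and Tbr1, also stand on the regional lists above. Over all tested genes 6.89% fell and 7.50% rose. A marker that entered the test through 1 genotype only had to differ, so the counts of markers are a description. Of 7 midbrain dopamine neuron markers, 5 were tested, of which 4 fell and 1, Nr4a2, rose. The summed linear signal of these markers was 2998 to 3988 in Atm+/+ and 1213 to 1311 in Atm-/-. Aldh1a1 was the brightest of them in Atm+/+, and Slc18a2 had no Atm-/- array above background. Slc6a3 and Pitx3, which define these neurons, were at background on all 4 arrays. Of 7 granule cell markers 6 were tested and 4 fell, with sums of 36100 to 48520 in Atm+/+ and 9914 to 10810 in Atm-/-, and Gabra6 was at background on both Atm-/- arrays. Of the Purkinje cell markers 3 were tested and 2 fell, with sums of 7665 to 8311 against 201.4 to 205.5. Both that fell, Pcp2 and Ppp1r17, had no Atm-/- array above background. Most of the Atm+/+ sum came from Pcp2, which reached background in Atm-/-. Pcp4 changed by -0.08 and did not pass, and Calb1 and Car8 were at background on all 4 arrays.

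Cerebellar interneuron markers gave 3 falls among 5 tested genes, with sums of 60570 to 64530 in Atm+/+ and 8952 to 8986 in Atm-/-. The brightest was Pvalb, at 15.47 and 15.51 in Atm+/+ and 12.13 on both Atm-/- arrays. Sorcs3, at -0.19, and Lypd6, at -0.76, did not pass. For the thalamus, where Gbx2 acts in development, 5 of 6 markers fell and 1 rose, with sums of 26320 to 26770 against 5723 to 6153. Slc17a6 and Calb2 were the brightest of them, and Zic4 also stands on the rhombomere 1 and cerebellum list. Markers of cortex moved the other way, like Otx1, and all 5 with a probe rose. The sums of the cortex markers were 2028 to 3809 in Atm+/+ and 23520 to 26120 in Atm-/-. Of the 5, 2 were tested only through Atm-/-, Tbr1 and Emx1. Of 4 striatum markers with a probe 3 rose, with sums of 2823 to 4553 against 14340 to 14660. Of the 3, 1 was tested only through Atm-/-, Drd1. Serotonin and noradrenaline neurons arise next to the isthmus, and all 5 of their markers with a probe fell. The sums of these markers went from 1131 to 1767 down to 256.3 to 302. Of the 5, 3 had no Atm-/- array above background, Dbh, Slc6a2 and Phox2a. In each of these lists the ranges of the genotypes did not overlap. Their part in the changes of En1, En2, Gbx2, Meis1 and Otx1 was not tested, and in this design genotype and the area of brain sampled cannot be told apart.

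The genes most like En2 and Otx1 in pattern were found over the 4 arrays, by the Euclidean distance between log2 values after each gene's mean was subtracted. Closest to En2 were the LIM homeobox gene Lhx1 at a distance of 0.634, Hoxb5 at 0.67, Epm2aip1 at 0.693, Lrrc57 at 0.792 and Hoxa5 at 1.04. Lhx1 and both Hox genes are factors of posterior brain on the lists above. Closest to Otx1 were the kinase gene Stk32c at 0.0977, the T cell receptor segment Trbv13-2 at 0.127, the T cell surface gene Cd6 at 0.326, the Ras-like gene Rasl10a at 0.333 and Rin1, a Ras effector gene of forebrain neurons, at 0.367. With 4 arrays, a short distance mainly means a change of the same size.

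Whether single arrays decided the calls was checked by leaving out each array. For the probe that stood for each of En2, Otx1, En1, Gbx2 and Meis1, the call held in all 4 fits, with the highest adjusted p being 0.000129 for En2, 0.000818 for Otx1, 0.00203 for En1, 0.00444 for Gbx2 and 0.0217 for Meis1. The lone array of a genotype was then assumed to vary like the other genotype. The change of En2 lay between -5.99 and -5.74 in these fits and that of Otx1 between 4.17 and 4.40.

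**Figure D4:**
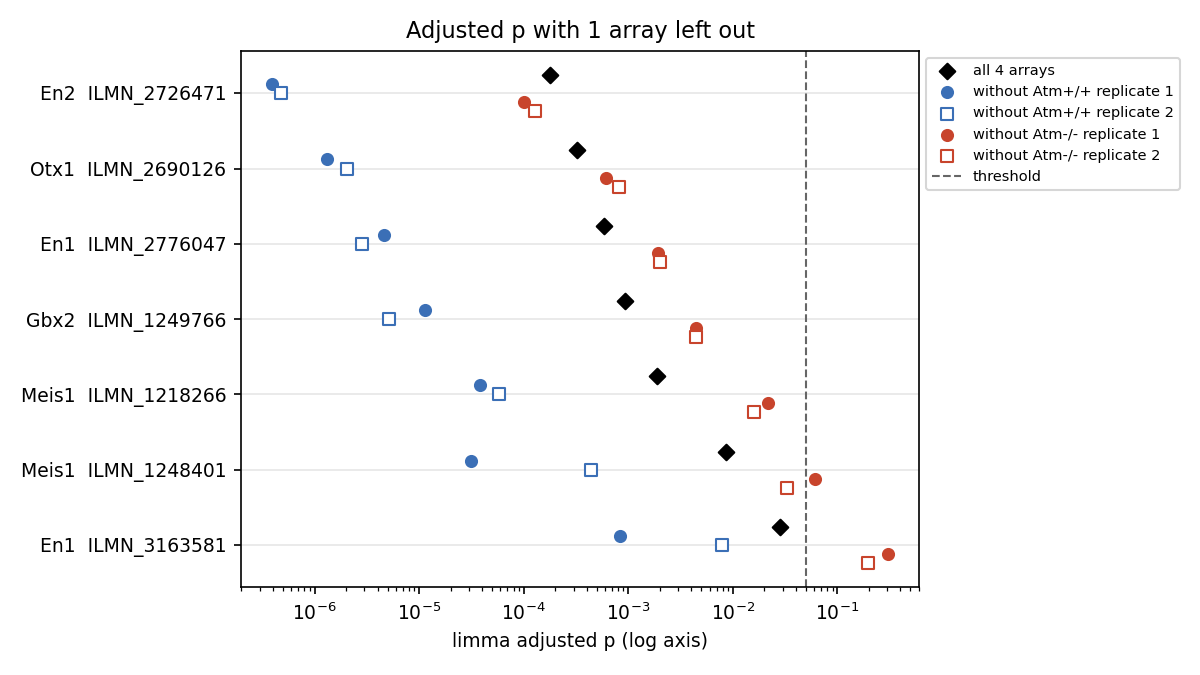
limma adjusted p (horizontal log axis) of the 7 called probes with all 4 arrays (diamonds) and with 1 array left out (blue for an Atm+/+ array, red for an Atm-/- array), and the threshold of 0.05 as a dashed line. The fits without an Atm-/- array lie furthest to the right for all but En2, and cross the threshold for the dimmer En1 probe in both fits and for the dimmer Meis1 probe in 1.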

How the data were processed

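The authors deposited processed log2 signals for 45281 probes on each of 4 arrays. The base of 2 was inferred from their range of 4.47 to 16.1. How they were normalized, and with which software, is not given in the sources. Sorted values of the 4 arrays differed by at most 0.0792, as after quantile normalization. Trizol was used to extract the RNA, and an Ambion kit to make biotinylated cRNA, per the labels. A table of signals before normalization holds 8 columns of per-sample values whose names match no single label, so it was not used.

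Genotype came from the genotype label and the replicate number from the title. The background level, 5.64, was the mode of all values (5.054, density bandwidth 0.05) plus 3 SD of the values under it (0.195). Probes above it on at least 2 arrays, 22385 in all, entered a limma fit (version 3.58.1, R 4.3.3; lmFit, then eBayes) with no covariate, 2 residual and 5.22 prior degrees of freedom, and Benjamini-Hochberg adjustment over all of them. Where both arrays of a genotype were at or below that level, a called change is given as at least N-fold, against the level. The fit was tested on simulated data.

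Symbols came from the platform annotation, where 34885 probes have 1 symbol, 18 several and 10378 none; gene identifiers matched the RefSeq gene table for 99.8%, with 0 symbols changed. A gene is read at its brightest tested probe. All member probes are described; from each list, up to 4 genes of largest change past the threshold are named, and every tested boundary partner. The members, lists and rules were chosen with earlier results of these data known. Of the 11 alternatives, the default density bandwidth was chosen after seeing the data. The number of arrays limits the precision.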

Additional observations from a re-analysis of the deposited data

How the results depend on the processing

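The calls of En1, En2, Gbx2, Meis1 and Otx1 at their brightest tested probe held under each alternative that could be fitted: quantile normalization applied again, no filter, a filter on all 4 arrays (in which En1, at background in Atm-/-, and the dimmer Meis1 probe have no value, leaving 3 member genes that fell), a background level 2 SD above the mode (5.44) or from the default density bandwidth (5.73), an intensity trend with robust estimation, the replicate block, and 1 array left out. Pax8 and Fgf17 passed under none of those that could be fitted. With 1 array left out, the probes called ranged from 387 to 4176 higher and from 255 to 4146 lower, telencephalon factors from 6 to 11 rises and 0 to 1 falls, diencephalon and midbrain factors from 1 to 6 falls, caudal factors from 7 to 13 falls, boundary partners from 0 to 1 rises, FGF genes from 0 to 1 rises and 0 to 3 falls, and TALE and Groucho genes from 0 to 4 rises and 0 to 2 falls. With probes above background on all 4 arrays there were 3 telencephalon rises and 0 boundary rises. Falls then numbered 3 for diencephalon and midbrain, 7 for rhombomere 1 and cerebellum, 1 for caudal and 2 for FGF genes. This filter drops every probe with any array at background, and the cause of the higher FGF count was not tested. Without a filter boundary rises were 0, and FGF falls were 2 with the intensity trend or the default bandwidth; the cause was not tested. The arrays share replicate numbers, but the labels do not say that a number marks a shared animal or batch, and deviations of same-numbered arrays from their genotype means correlated at 0.059 across tested probes. With the replicate block 2378 probes were higher and 2197 lower, 2 FGF genes fell and 1 TALE or Groucho gene rose. The signals before normalization were not run, since their columns could not be mapped to samples.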
